A study of Mus musculus with 30 samples.

Results

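The keratin-associated protein genes (Krtap) are described here across 15 libraries of mouse hind paw. They were chosen by name, as every symbol in the count tables that begins with Krtap followed by a digit. This gave 51 of the 22609 genes listed, in 23 families by the number in the symbol. Of these symbols 7 were older names, so the numbers do not all match current families. The paw came from C57BL/6J mice aged 10 to 12 weeks, which carried no other labelled allele. The paw libraries form 5 groups of 3. In 4 groups ribosomal RNA had been removed, and the mice were females or males given prolactin (PRL, a pituitary hormone) or vehicle (Veh; the protocol names PBS). The fifth group, PRL_Sh, was made from females labelled as given prolactin, with a kit that selects mRNA, and Sh is not spelled out. Prolactin was given at 1 µg per i.pl. injection, once or daily for 12 days, and nothing assigns a library to either schedule. Replicates are not stated to be separate animals, so p-values measure the spread between these libraries, which may be technical. The dorsal root ganglion (DRG) libraries, 15 in number, served as a tissue with no hair.

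Keratin-associated proteins form the matrix of the hair shaft. They are small proteins rich in cysteine, or in glycine and tyrosine, and they bind the hair keratin filaments to each other, largely through disulphide bonds. Their genes are short and lie in a few clusters, and they are transcribed late in the differentiation of the cortex and cuticle cells of a growing follicle, so their transcripts are known as markers of follicles in the growth phase. The largest cluster lies among the type I keratin genes and holds the high-sulphur families Krtap1, Krtap2 and Krtap3 and the ultra-high-sulphur families Krtap4 and Krtap9. Another cluster holds the glycine- and tyrosine-rich families Krtap6, Krtap7 and Krtap8 and the high-sulphur families Krtap11, Krtap13, Krtap24 and Krtap26. A further one holds the ultra-high-sulphur family Krtap5, and one more, with Krtap10 and Krtap12, lies inside the gene Tspear.

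The Krtap3 genes are shown first as sequence because 1 of the 3, Krtap3-2, had reads in every paw library while its neighbours Krtap3-1 and Krtap3-3 did not. Krtap12-1, of another locus, also had reads in every paw library. The lines below give the 250 bases before each annotated start, 5′ to 3′ on the minus strand, from RefSeq (GRCm38.p6), with any TATAAA in capitals. They lie at chr11:99566631-99566880, chr11:99556854-99557103 and chr11:99550864-99551113.
Krtap3-1: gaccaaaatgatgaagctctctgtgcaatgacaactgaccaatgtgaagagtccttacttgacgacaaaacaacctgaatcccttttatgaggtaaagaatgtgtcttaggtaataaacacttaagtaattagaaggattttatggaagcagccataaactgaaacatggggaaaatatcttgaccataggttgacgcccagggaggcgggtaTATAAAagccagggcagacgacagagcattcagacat
Krtap3-2: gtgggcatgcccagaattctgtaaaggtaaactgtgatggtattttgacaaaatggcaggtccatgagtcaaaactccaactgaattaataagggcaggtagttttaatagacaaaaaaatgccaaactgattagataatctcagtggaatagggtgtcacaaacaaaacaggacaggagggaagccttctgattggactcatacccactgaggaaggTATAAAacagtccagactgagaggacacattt
Krtap3-3: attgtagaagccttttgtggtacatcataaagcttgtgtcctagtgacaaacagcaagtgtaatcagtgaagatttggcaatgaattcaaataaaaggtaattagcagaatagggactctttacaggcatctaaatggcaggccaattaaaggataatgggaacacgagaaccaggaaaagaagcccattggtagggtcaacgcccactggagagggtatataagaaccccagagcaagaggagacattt
TATAAA, letters of a TATA box, began 37 bases before the start of Krtap3-1 and 32 bases before that of Krtap3-2. These exact letters were not in the window of Krtap3-3, which reads tatataag near its end. Whether Krtap3-3 has a TATA box in another form was not tested. The letters TTTAT, searched for the homeobox factor Hoxc13, occurred 4 times in the Krtap3-1 window, 2 times in that of Krtap3-3 and 0 times in that of Krtap3-2. Both strands were searched, with the TATA box letters masked. CTTTGA, searched for the factor Lef1, was in none of the 3. The windows were 55.6% to 58.7% identical in pairwise alignment. A window was found for 46 of the 51 genes. The letters TATAAA, on either strand, were in 37 of these 46 windows (80.4%), against 13.0% of 27025 mouse promoter windows of the same length. The Hoxc13 letters outside them were in 21 (45.7%, against 31.5%), and the Lef1 letters in 11 (23.9%, against 14.0%). These matches describe the letters alone.

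All 51 Krtap genes had at least 1 read in the rRNA-depleted paw libraries. Together they took 6300 reads there and 2116 in PRL_Sh paw. The 15 DRG libraries held 56 Krtap reads on 22 of the genes, with at most 4 reads of 1 gene in 1 library. Each PRL_Sh DRG library had 12 to 17 of these reads and each rRNA-depleted DRG library 0 to 3. Gene reads per rRNA-depleted paw library ran from 6.87 to 13.5 M, and in PRL_Sh paw from 21.8 to 23.2 M. Male Veh 2 was the shallowest and differed in make-up, with 13.6% of its reads assigned to genes and 55.5% aligned to more than 1 place, against 22.3% to 26.2% and 41.5% to 44.8% in the other rRNA-depleted paw libraries. The epidermal keratin Krt10 marked every paw library as skin, at 14181 to 28389 CPM (reads per M gene reads), against 3.56 to 40.7 in DRG. The neuronal sodium channel gene Scn10a, at 873 to 1275 CPM in DRG, was at 0.0742 to 1.73 in paw.

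Summed over all 51 genes, the Krtap level varied widely between libraries, within arms as well as between them. In Female Veh it was 33.0, 6.40 and 42.0 CPM in replicates 1, 2 and 3. In Female PRL it was 55.5, 54.5 and 3.98 CPM. In Male Veh it was 77.8, 169.4 and 145.0 CPM. In Male PRL it was 1.75, 13.0 and 1.98 CPM. Each of the 3 Male Veh libraries lay above every other paw library, and each of the 3 Male PRL libraries lay below every Male Veh library. Within both female arms 1 library was low and the other two were high, so the female arms overlapped. PRL_Sh was even by comparison, at 22.8, 44.9 and 27.5 CPM. The 95% Wilson intervals of these sums, which cover counting error only, ran from 1.16 to 2.65 CPM in Male PRL 1 and from 159.9 to 179.4 CPM in Male Veh 2.

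**Figure D1:**
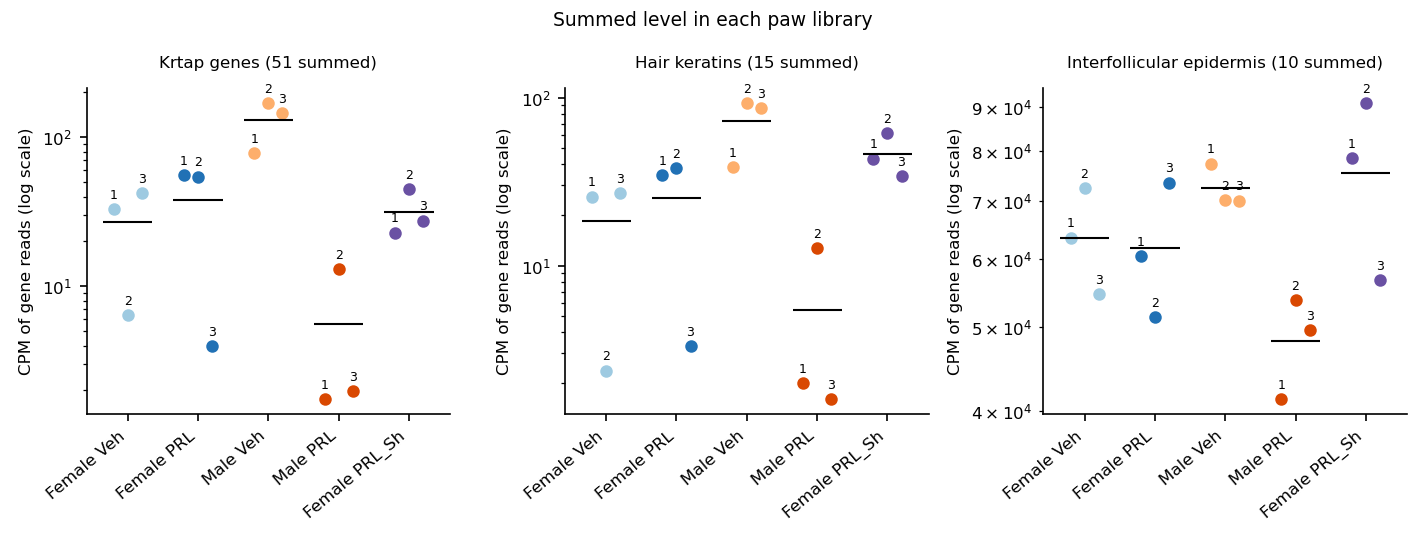
Summed level in each of the 15 paw libraries, in CPM of gene reads on log axes that differ between panels, for the 51 Krtap genes, for 15 hair keratin genes and for 10 genes of the interfollicular epidermis. Points are libraries with their replicate numbers and lines are arm means; Female Veh 2, Female PRL 3, Male PRL 1 and Male PRL 3 lie lowest in both hair panels, and Male PRL has the lowest mean in the epidermal panel.

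The number of Krtap genes with a read was lowest where the summed level was lowest, but did not follow that level closely in the other libraries. The number was 41, 7 and 42 of 51 in Female Veh, 35, 38 and 6 in Female PRL, 46, 48 and 45 in Male Veh, 5, 29 and 5 in Male PRL, and 42, 41 and 43 in PRL_Sh. Female Veh 2, Female PRL 3, Male PRL 1 and Male PRL 3 thus held 5 to 7 of the genes each, against 29 to 48 in every other paw library. These 4 libraries were drawn from 3 arms and, at 10.3 to 12.6 M gene reads, were within the range of the other rRNA-depleted paw libraries and shallower than PRL_Sh. The labels do not state whether hairy or hairless paw skin went into each library. A count of 0 in one of them allows up to 0.239 to 0.291 CPM of a gene. Male Veh held 63.8% of all Krtap reads of the rRNA-depleted paw, 47 of the 51 genes had their highest CPM in a Male Veh library, and 33 had their highest read count in Male Veh 3.

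**Figure D2:**
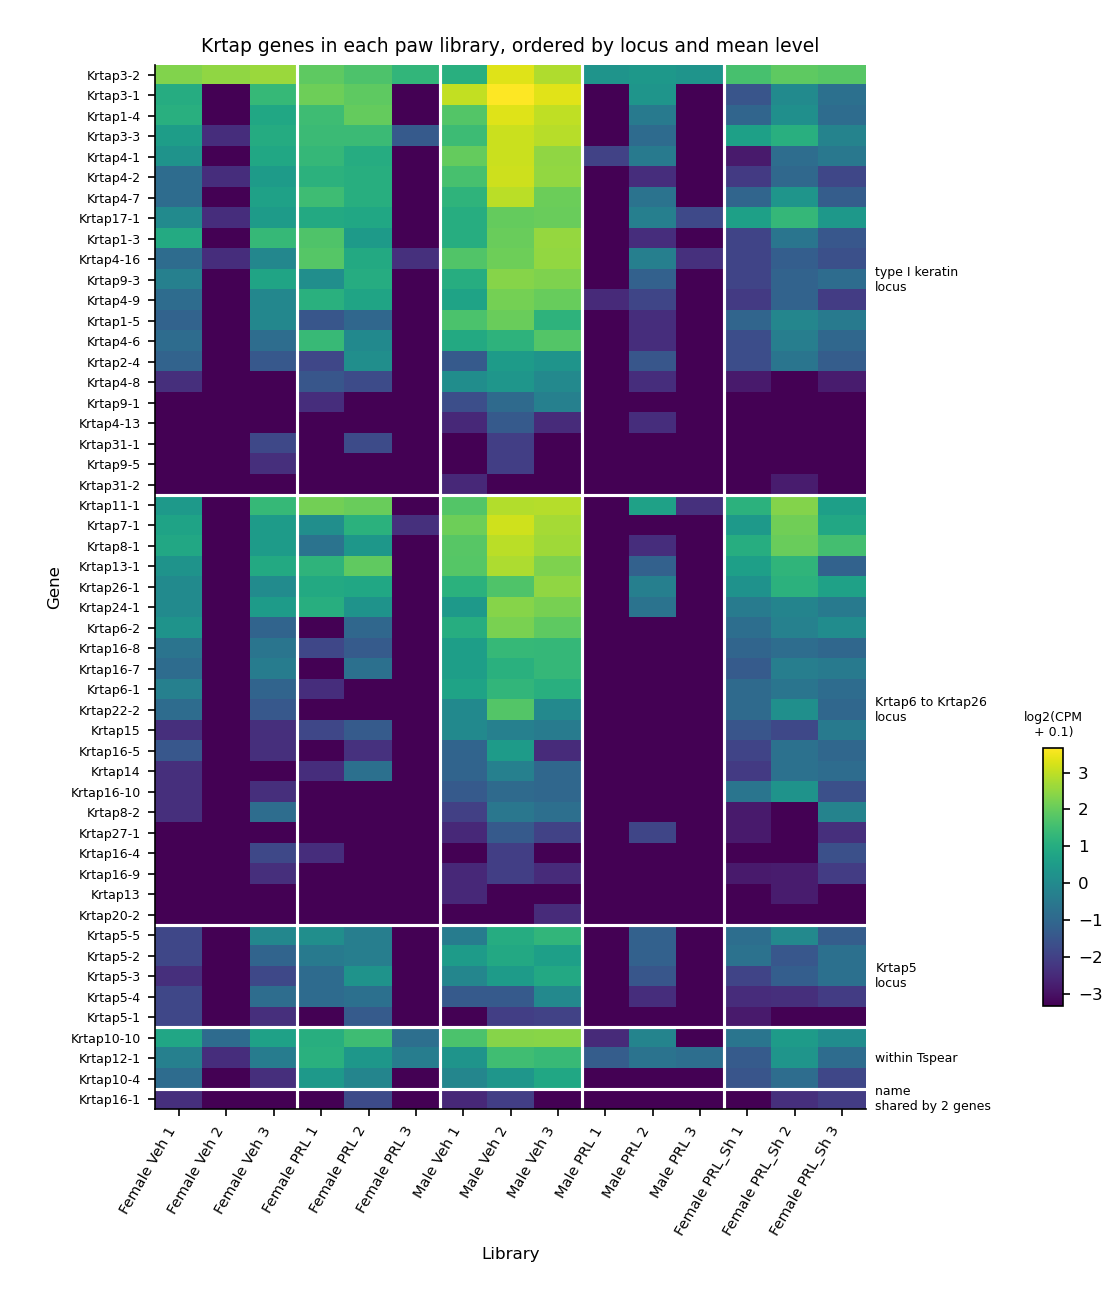
Level of each of the 51 Krtap genes (rows, grouped by locus and ordered by mean level) in each of the 15 paw libraries (columns, grouped by arm), as log2 of CPM of gene reads plus 0.1. The darkest cells are 0 reads; they fill the columns of Female Veh 2, Female PRL 3, Male PRL 1 and Male PRL 3 except for Krtap3-2 and a few others.

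Levels between genes were compared per kilobase of exon, as mean CPM per kilobase ± SD over 3 libraries. In Male Veh the order was led by Krtap3-1 at 16.8 ± 3.80, Krtap1-4 at 11.8 ± 5.65, Krtap7-1 at 10.5 ± 3.63, Krtap8-1 at 10.0 ± 3.62 and Krtap3-3 at 8.38 ± 4.17, neighbours that did not differ beyond their spread. Both the high-sulphur and the glycine- and tyrosine-rich families were thus among the most abundant. On the same scale in the same arm, the inner root sheath keratins Krt71 and Krt25 were at 77.0 ± 28.5 and 46.2 ± 19.6, and the cortical hair keratins Krt31 and Krt35 at 3.70 ± 1.30 and 2.30 ± 0.96. In Female Veh, Krtap3-2 led at 5.32 ± 0.52, ahead of Krtap3-1 at 2.40 ± 2.12. In PRL_Sh, Krtap8-1 led at 5.15 ± 1.88, followed by Krtap7-1 at 3.93 ± 2.70 and Krtap3-2 at 3.30 ± 0.35.

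Some members were barely read. Krtap9-1, Krtap16-4, Krtap9-5, Krtap13, Krtap31-2 and Krtap20-2 had at least 50% of their rRNA-depleted paw reads in 1 library. Krtap9-1, the most read of these 6, had 3, 3 and 9 reads in Male Veh and 1 read elsewhere, in Female PRL 1, so it was at least 5.27-fold lower in Male PRL with 3 reads as the floor over the arm. Krtap9-5, Krtap13, Krtap31-2 and Krtap20-2 had 2 reads or fewer in all. Nothing can be said of a difference in these 4 genes at this depth.

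Male paw given prolactin was compared with male paw given vehicle to ask which transcripts differ between the arms at the injection site, and here the Krtap genes were lower throughout. Members of all 4 loci fell, among them Krtap3-3, Krtap4-2 and Krtap1-5 of the type I keratin locus, Krtap6-1, Krtap7-1 and Krtap8-1 of the glycine- and tyrosine-rich cluster, Krtap5-2 and Krtap10-10. Of these, Krtap1-5, Krtap6-1 and Krtap5-2 passed the low-count filter described below only with Male Veh, as did every tested Krtap5 gene. Pooled over the arm, Krtap reads were 22.2 times as frequent in Male Veh (4019 reads) as in Male PRL (191 reads). In bulk tissue fewer hair-forming cells and less RNA per cell cannot be told apart. Of the 31 genes that passed a filter on low counts, 29 were called lower and 0 higher, where 10.1% of all 14721 tested genes were called lower (edgeR's quasi-likelihood test, Benjamini-Hochberg adjusted p below 0.05). Without the filter, 35 of all 51 were called lower, where 8.78% of 18883 genes were.

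The filter itself favoured genes that are high in Male Veh. It asked in effect for 0.904 CPM in 3 libraries, and 14 of the 31 reached this only with Male Veh libraries. The other 17 reached it without them, and 16 of these 17 were among the 29 called, where 9.97% of the 14601 genes that reached it this way were called lower. The 14 that needed Male Veh were Krtap1-5, Krtap2-4, Krtap4-6, Krtap4-9, Krtap4-16, Krtap5-2, Krtap5-3, Krtap5-5, Krtap6-1, Krtap6-2, Krtap10-4, Krtap12-1, Krtap16-7 and Krtap16-8. They would not have been tested without their Male Veh values, so their place among the genes that passed the filter is no support for a difference. The 2 genes just above it were Krtap5-5 and Krtap2-4, with 0.933 and 0.979 normalised CPM in the library ranked 3 of 12, and the 2 just below it were Krtap4-8 and Krtap22-2, at 0.897 and 0.887.

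Krtap7-1, a glycine- and tyrosine-rich matrix protein, had 57, 60 and 81 reads in Male Veh and 0, 0 and 0 in Male PRL. Taking 3 reads as the floor over the 3 libraries, it was at least 69.6-fold lower in Male PRL (fitted log2 change -9.19 ± 1.66 SE, which is no bound, edgeR adjusted p = 0.00438). Krtap6-1, Krtap6-2, Krtap16-7, Krtap16-8 and Krtap10-4 were also at 0 reads in all of Male PRL. They were lower by at least 21.8-, 36.5-, 22.1-, 23.2- and 14.1-fold, and all 5 were called. Unlike Krtap7-1, these 5 passed the filter only with Male Veh, so their calls are no support for a difference. Krtap6-1 and Krtap6-2 belong with Krtap7-1 to the glycine- and tyrosine-rich class. Krtap16-7 and Krtap16-8 are older names, now Krtap21-1 and Krtap6-5, so Krtap16-8 is a member of the Krtap6 family as well. In all, 22 of the 51 genes had 0 reads in Male PRL, 16 of them among the 20 genes that were not tested.

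Krtap8-1, the third of the glycine- and tyrosine-rich families, had 47, 52 and 77 reads in Male Veh and 0, 1 and 0 in Male PRL. The libraries of the arms lay far apart. Its ratio was 185.5 with a 95% counting interval from 32.9 to 7369, and its mean was 5.95 ± 2.33 against 0.0294 ± 0.0509 normalised CPM (SD, n = 3, edgeR adjusted p = 0.0029). Krtap1-5, a high-sulphur gene that would not have been tested without its Male Veh values, had the smallest p of the members, with 42, 28 and 27 reads in Male Veh and 0, 1 and 0 in Male PRL (fitted log2 change -6.25 ± 1.04 SE, edgeR adjusted p = 0.00179). Its ratio was 102.3, with an interval from 17.9 to 4080. Krtap4-2, an ultra-high-sulphur gene, had 40, 59 and 71 reads against 0, 1 and 0, a ratio of 179.2 with an interval from 31.7 to 7119 (edgeR adjusted p = 0.00351). All 3 rest on a single read in Male PRL, so their intervals are wide on the high side.

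Krtap3-2 and Krtap12-1 were the only members with reads in all 3 Male PRL libraries. Krtap3-2 had 27, 68 and 88 reads in Male Veh and 14, 14 and 12 in Male PRL, and fell by 2.38 ± 0.49 (SE) on the log2 scale, from 6.59 ± 4.33 to 1.21 ± 0.0402 normalised CPM (SD, n = 3, edgeR adjusted p = 0.00593). The lowest Male Veh library, replicate 1, was above the highest Male PRL library, at 1.23 CPM. Krtap12-1, inside Tspear, had 15, 19 and 31 reads against 4, 6 and 5 and fell by 2.20 ± 0.60 (edgeR adjusted p = 0.0216). These 2 had the smallest fitted changes among the 31. Krtap10-10, also inside Tspear, had 42, 35 and 65 reads against 1, 9 and 0 and fell by 3.87 ± 0.81 (edgeR adjusted p = 0.00634). Krtap4-16 had 44, 29 and 71 reads against 0, 8 and 1 and also fell (edgeR adjusted p = 0.0128). Krtap12-1 and Krtap4-16 passed the filter only with Male Veh.

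**Figure D3:**
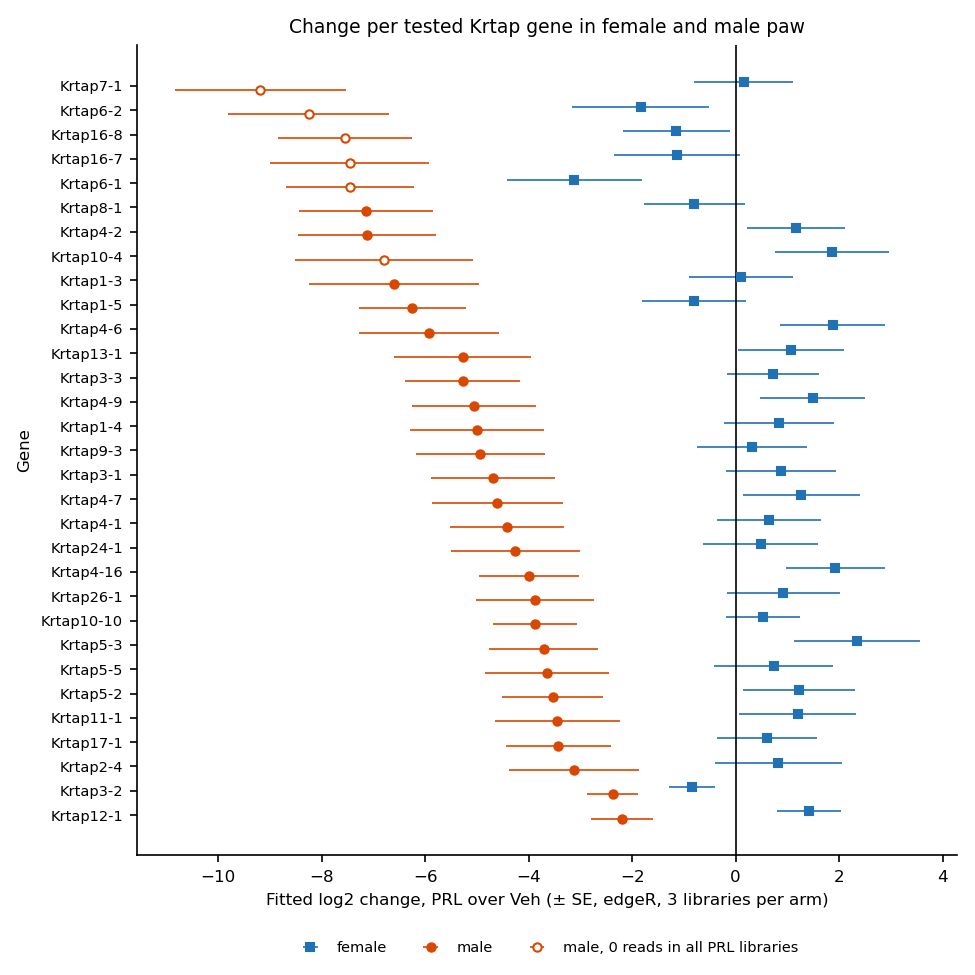
Fitted log2 change of PRL over Veh with its standard error for each of the 31 tested Krtap genes (rows) in male paw (circles) and female paw (squares), 3 libraries per arm. Open circles had 0 reads in all 3 Male PRL libraries, so their fitted value is no bound. Every male value lies left of 0, and the female values lie on both sides, 24 above it and 7 below.

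The other called members lay in the type I keratin, Krtap6 to Krtap26 and Krtap5 loci. Those of the Krtap5 locus passed the filter only with Male Veh. Krtap3-3 had 36, 58 and 92 reads in Male Veh and 0, 5 and 0 in Male PRL, and Krtap3-1 had 107, 86 and 125 against 0, 13 and 0. Krtap4-1 had 53, 58 and 69 reads against 2, 7 and 0. Krtap4-6 and Krtap4-9 had 24, 15 and 42 and 21, 31 and 50 reads in Male Veh and 1 and 3 in all of Male PRL. All 5 were called, Krtap4-6 and Krtap4-9 after passing the filter only with Male Veh. Among the tested genes 2 were not called. Krtap11-1, a high-sulphur gene, had 45, 49 and 90 reads against 0, 17 and 1 (log2 change -3.45 ± 1.21 SE, edgeR adjusted p = 0.0618). Krtap2-4 had 4, 9 and 14 against 0, 3 and 0 (fitted log2 change -3.13 ± 1.26 SE, edgeR adjusted p = 0.0976). The median fitted change of the 31 was -4.93, or -4.47 with the 6 genes at 0 reads set to their bounds, beside a median of 0.02 over all tested genes. Over the 17 genes that reached the filter without Male Veh the median was -4.69. The libraries of the arms did not overlap in any of these 17, as in 19.7% of the 14601 genes that reached the filter this way. They did not overlap in the other 14 either (19.8% of all tested genes, in the same direction), where the filter itself asked for high Male Veh values.

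Male PRL was not uniform. Replicate 2 held 148 of the arm's 191 Krtap reads, 77.5%, and 21 of the genes had Male PRL reads in that library alone. Leaving out Male PRL 1 or Male PRL 3 reduced the members called lower to 16 and 14, and leaving out Male PRL 2 gave 31. Under all 12 alternatives run for this comparison 13 genes kept their call. Of these, Krtap3-2, Krtap3-3, Krtap4-2, Krtap7-1, Krtap8-1 and Krtap10-10 reached the filter without Male Veh. The rest were Krtap1-5, Krtap4-6, Krtap4-9, Krtap6-1, Krtap6-2, Krtap16-7 and Krtap16-8. They were tested only through their Male Veh values, so their kept calls are no support for a difference.

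Female paw gave another picture. Of the same 31 genes, 0 passed the test between PRL and Veh, where 7.55% of all tested genes were called in either direction. At an unadjusted p below 0.05 there were 2, against 20.6% of all tested genes, and DESeq2 called 0 of the 51. The genes with the smallest p pointed both ways. Krtap6-1 had 8, 0 and 4 reads in Female Veh and 1, 0 and 0 in Female PRL (edgeR adjusted p = 0.21). Krtap12-1 had 8, 1 and 7 reads in Veh and 23, 12 and 7 in PRL (log2 change 1.41 ± 0.62 SE, edgeR adjusted p = 0.217). Krtap4-16 had 5, 1 and 9 reads in Veh and 38, 18 and 1 in PRL (log2 change 1.93 ± 0.96 SE, edgeR adjusted p = 0.288). Krtap5-3 had 1, 0 and 2 reads in Veh and 5, 11 and 0 in PRL (edgeR adjusted p = 0.309). In each of these 4 genes the arms overlapped. The median change of the 31 was 0.73, against -0.01 over all tested genes.

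Krtap3-2 was the exception to that overlap. It had 54, 63 and 64 reads in Female Veh and 41, 32 and 24 in Female PRL, or 5.30 ± 0.54 and 2.95 ± 0.63 normalised CPM (SD, n = 3). Every Female PRL library was below every Female Veh library, as in 9.73% of all tested genes, but the change of -0.84 ± 0.44 (SE, log2) did not pass the test (edgeR adjusted p = 0.319). All 4 libraries that were low in the other members still held reads of this gene. Female Veh 2, at 5.52 CPM, was inside the range of its arm, Female PRL 3 was the lowest of its arm at 2.33 CPM, and Male PRL 1 and 3 were the lowest of all 15 paw libraries at 1.11 and 1.13 CPM. Female Veh 2 had 63 reads of Krtap3-2 beside 10 reads of all other Krtap genes together, and Female PRL 3 had 24 beside 17. In Male PRL 1 and 3 it had 14 and 12 reads, beside 8 and 9 of all others. It thus made up 86.3%, 58.5%, 63.6% and 57.1% of the Krtap reads of these 4 libraries, and 2.58% to 14.9% of those of the other rRNA-depleted paw libraries. Krtap12-1 was read in all 4 as well, with 1 read in Female Veh 2, 7 in Female PRL 3, and 4 and 5 in Male PRL 1 and 3.

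The contrast within the family is plain in the counts. Krtap3-1 had 21, 0 and 26 reads in Female Veh, 47, 37 and 0 in Female PRL, 107, 86 and 125 in Male Veh, and 0, 13 and 0 in Male PRL. Krtap3-3 had 15, 1 and 20 reads in Female Veh, 29, 26 and 3 in Female PRL, 36, 58 and 92 in Male Veh, and 0, 5 and 0 in Male PRL. Both were at or near 0 in the 4 libraries in which Krtap3-2 stayed at 12 to 63 reads. Of the promoter windows printed above, that of Krtap3-2 held no TTTAT and the other two did, while TATAAA was in those of Krtap3-1 and Krtap3-2. The relation of these letters to the levels was not tested. Of the 50-base stretches of the transcripts, 91.2%, 71.1% and 58.7% were unique to Krtap3-1, Krtap3-2 and Krtap3-3, and the rest were shared within the family, so reads in shared stretches may have been dropped or misplaced.

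**Figure D4:**
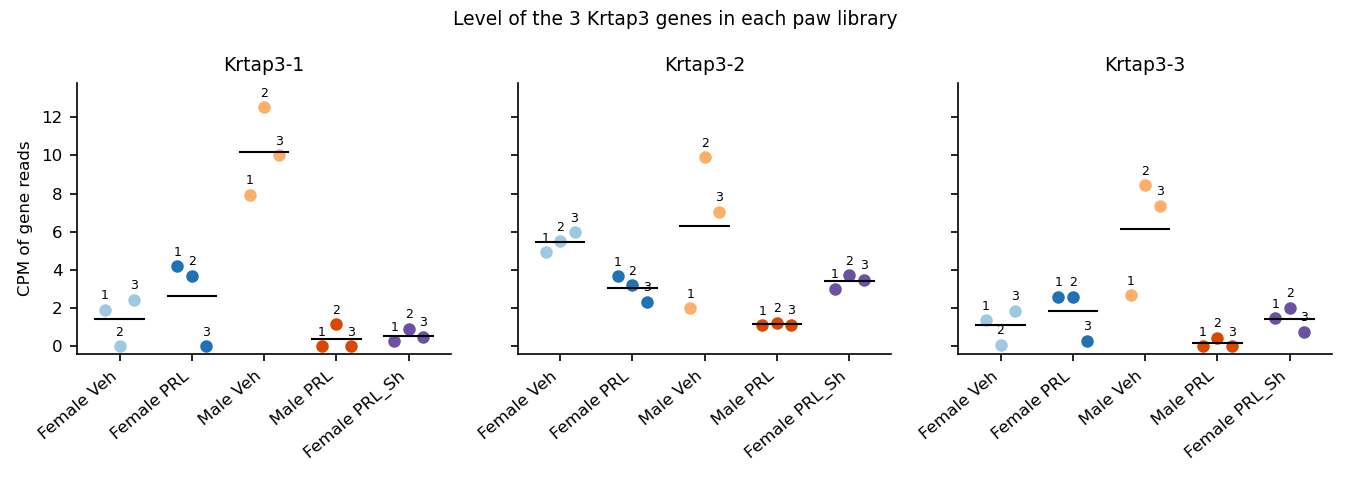
Level of Krtap3-1, Krtap3-2 and Krtap3-3 in each of the 15 paw libraries, in CPM of gene reads, with replicate numbers and the mean of each arm as a line. Krtap3-1 and Krtap3-3 are at or near 0 in Female Veh 2, Female PRL 3 and Male PRL 1 and 3, while Krtap3-2 lies between 1.11 and 5.52 CPM in these libraries.

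Averaged over the sexes, PRL against Veh gave 12 members lower and 0 higher, where 10.0% of all tested genes were called lower. They were Krtap6-1, Krtap3-2, Krtap8-1, Krtap1-5, Krtap16-8, Krtap6-2, Krtap7-1, Krtap16-7, Krtap4-2, Krtap1-3, Krtap10-10 and Krtap3-3. Krtap6-1, Krtap1-5, Krtap16-8, Krtap6-2 and Krtap16-7 were tested only through their values in Male Veh, an arm of this comparison. Of the 17 genes that reached the filter without Male Veh, 7 were called. Krtap3-2 fell by 1.61 ± 0.33 (SE, log2, edgeR adjusted p = 0.00447) and was lower in PRL without overlap in both sexes. The female change of the other 11 ran on both sides of 0, and the calls of this average share the male arms with the comparison above. Leaving out Female Veh 3 left 7.

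The sexes were then compared in their response. All 31 tested genes had a more positive change in females than in males, by 1.54 to 9.34 on the log2 scale, with a median of 5.84. With 3 libraries per arm and the spread above, 0 passed edgeR's test of the difference, where 0.00679% of all tested genes did, and 30 of the 31 had an unadjusted p below 0.05 (13.1% of all tested genes), among them all 17 that reached the filter without Male Veh. The smallest adjusted p was 0.205, shared by Krtap4-2, Krtap4-6, Krtap4-16, Krtap12-1, Krtap4-9 and others. DESeq2 called 8 of the 51 members in that direction, where it called 0.593% of all 18883 genes. The male change is therefore not shown to differ from the female one by the main test.

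Vehicle-treated females and males were compared for the level without prolactin. The summed level was 26.3 ± 18.1 normalised CPM in Female Veh and 135.4 ± 52.9 in Male Veh (SD, n = 3), with no overlap of the libraries. By gene, 0 of 31 passed the test, where 0.109% of all tested genes did. At an unadjusted p below 0.05 there were 27 (8.1% of all tested genes), and 14 of the 17 that reached the filter without Male Veh. DESeq2 called 1 of the 51, lower in females, where it called 0.312% of 18883 genes lower. Krtap1-5 had 4, 0 and 9 reads in Female Veh and 42, 28 and 27 in Male Veh (edgeR adjusted p = 0.21). Krtap4-2 had 5, 1 and 14 reads against 40, 59 and 71 (edgeR adjusted p = 0.268), Krtap5-3 had 1, 0 and 2 against 11, 9 and 22 (edgeR adjusted p = 0.322), and Krtap12-1 had 8, 1 and 7 against 15, 19 and 31 (edgeR adjusted p = 0.311). Libraries did not overlap in 14 of the 17 genes, Krtap4-2 among them, where 7.37% of all tested genes were lower in females without overlap. Krtap1-5, Krtap5-3 and Krtap12-1 did not overlap either. These were tested only through their Male Veh values, so their lack of overlap is no support for a difference. The Male Veh arm enters both this comparison and that of the male arms.

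PRL_Sh was set against Female PRL, where the library kit and the arm cannot be told apart. The 35 genes outside the 16 tested were too low for the filter. Of the 16, Krtap8-1 alone passed as higher, where 29.4% of all 14800 tested genes were called higher and 29.0% lower. It had 45, 89 and 63 reads in PRL_Sh and 6, 12 and 0 in Female PRL, or 2.94 ± 1.03 against 0.587 ± 0.619 normalised CPM (SD, n = 3, log2 change 2.33 ± 0.73 SE, edgeR adjusted p = 0.0284), with no overlap. It was lost with the replicate number as a block and without Female PRL 1, PRL_Sh 2 or PRL_Sh 3. Krtap3-1, by contrast, had 6, 20 and 11 reads in PRL_Sh and 47, 37 and 0 in Female PRL (log2 change -2.25 ± 1.01 SE, edgeR adjusted p = 0.0925). Without Female PRL 3, the library with few Krtap reads, 2 of 31 members were called higher and 13 lower, where 25.5% and 27.0% of all 15340 tested genes were, so this comparison turns on that library.

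The make-up of the Krtap reads differed between PRL_Sh and the rRNA-depleted libraries. The cluster of Krtap6 to Krtap26 (21 members) gave 51.5%, 54.5% and 52.1% of the Krtap reads of PRL_Sh, against 22.6% and 29.5% in Female PRL 1 and 2, 34.5% and 29.5% in Female Veh 1 and 3, and 33.5% to 35.1% in Male Veh. The type I keratin locus, also with 21 members, gave 35.2% to 37.9% in PRL_Sh and 54.1% to 63.4% in those other libraries. Within Male Veh the type I keratin locus stayed between 54.3% and 57.3% while the summed level ran from 77.8 to 169.4 CPM. The 95% Wilson intervals of the Krtap6 to Krtap26 share ran from 47.3% to 55.7% in PRL_Sh 1 and from 32.3% to 38.1% in Male Veh 1. Krtap genes inside Tspear gave 5.33% to 10.1% of the reads in the rRNA-depleted libraries with over 100 Krtap reads, and 8.22% to 29.3%, on 5 to 12 reads, in the 4 with fewer.

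**Figure D5:**
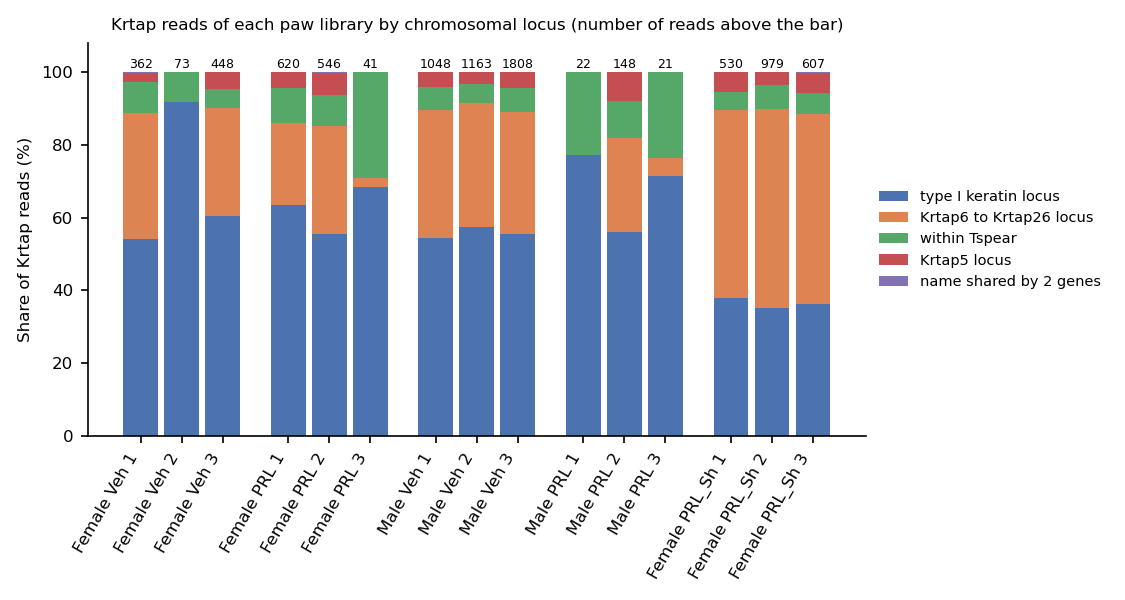
Share of the Krtap reads of each paw library, in percent, by chromosomal locus, with the number of Krtap reads above each bar. The Krtap6 to Krtap26 locus takes over 50% in each PRL_Sh library and at most 35.1% in every rRNA-depleted library; bars over 21 to 73 reads are imprecise.

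Other genes of the hair follicle were taken from marker lists. Hair keratins of the cortex and cuticle, the filaments that keratin-associated proteins bind, summed to 25.7, 2.37 and 27.0 CPM in Female Veh, 34.6, 38.1 and 3.30 in Female PRL, 38.5, 92.8 and 86.4 in Male Veh, and 1.99, 12.7 and 1.60 in Male PRL. The same 4 libraries were low as for the Krtap genes, and 10 or 11 of the 15 hair keratins had 0 reads in each of them. In male paw 11 of 14 tested hair keratins were called lower and 0 higher (median log2 change -3.93), where 10.1% of all tested genes were called lower. They were led by Krt39, Krt84, Krt86 and Krt34. Krt39 fell by 3.98 ± 0.71 and Krt84 by 1.54 ± 0.29 (SE, log2). In female paw 0 of 14 passed (median 0.38), where 7.55% of all tested genes did in either direction.

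The inner root sheath moulds the growing shaft. A marker list for it and the companion layer summed to 787.7, 601.2 and 719.4 CPM in Female Veh, 882.9, 654.4 and 569.9 in Female PRL, 1089, 1643 and 1493 in Male Veh, and 411.7, 685.4 and 431.3 in Male PRL. The 4 libraries low in Krtap reads were the lowest of their arms here too, by far less in the sum. Single genes of the list went further: 4 to 6 of its 14 genes had 0 reads in each of these libraries. In the other paw libraries 0 or 1 did. Which cells the remaining reads came from was not tested. In male paw 11 of 13 tested genes of this list were called lower (median -3.88), where 10.1% of all tested genes were. Among them were S100a3, Krt75, Krt73 and Padi3. Whether genes of this list, such as S100a3, are also expressed in the hair shaft was not tested. In female paw 0 of 13 were called. Krt71 had 739, 0 and 544 reads in Female Veh, 653, 520 and 49 in Female PRL, 1298, 1427 and 2502 in Male Veh, and 0, 279 and 2 in Male PRL. Its male change of -4.38 ± 1.56 (SE, log2) missed the threshold (edgeR adjusted p = 0.064), although the libraries of the arms lay far apart. Hair matrix regulators did not follow the Krtap level in females. They summed to 412.2, 425.2 and 380.9 CPM in Female Veh and 465.0, 346.9 and 512.4 in Female PRL, so that Female Veh 2 and Female PRL 3 were the highest of their arms. In males they summed to 459.3, 338.5 and 324.6 CPM in Veh and 234.9, 312.8 and 240.2 in PRL. Of 10 tested hair matrix regulators, 5 were called lower in male paw, where 10.1% of all tested genes were, and 0 in female paw. Hoxc13 and Msx2, transcription factors of the hair-forming matrix, fell in males by 0.94 ± 0.18 and 1.13 ± 0.23, and Dlx3 and Lef1 by 0.78 ± 0.17 and 1.16 ± 0.32. These changes were smaller than those of the Krtap genes.

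Lists for other cells of the paw showed what moved beside the Krtap genes. In male paw 10.1% of all tested genes were called lower and 12.3% higher. Of 8 follicle stem cell and outer root sheath genes, Lgr5, Lhx2 and Tbx1 fell in male paw, by 1.55 ± 0.20, 1.76 ± 0.24 and 0.91 ± 0.18, and Cd34 rose by 0.62 ± 0.17. Bmp4 alone of 10 dermal papilla genes fell. Of 10 interfollicular epidermis genes, 3 fell in male paw, Krt5 by 0.47 ± 0.13, Krt10 by 0.61 ± 0.18 and Krt2 by 0.64 ± 0.21. Their summed level was 41271 to 53717 CPM in Male PRL and 70060 to 77322 in Male Veh, a smaller difference than that of the Krtap genes. Sweat gland genes were lower in 3 of 8, and 0 of 9 sebaceous gland, 0 of 10 skeletal muscle, 0 of 6 palmoplantar epidermis and 0 of 3 sensory neuron genes passed. Of 4 melanocyte genes, Mitf rose and Tyrp1 fell. Macrophage genes went the other way, 6 of 7 higher in males, where 12.3% of all tested genes were called higher. In females, where 963 of all 14721 tested genes were called higher, 7 of 7 macrophage genes were. Of the other lists here, Lgr5 and Cd34 (1 higher, 1 lower) and the sensory neuron gene Prph (lower) were also called in females. There 148 of all tested genes were called lower. The summed level of the macrophage genes was 392.2 to 657.4 CPM in Male Veh, 874.8 to 1062 in Male PRL, 328.2 to 465.0 in Female Veh and 844.4 to 1279 in Female PRL. Macrophage genes thus passed the test in both sexes, whereas Krtap genes passed it in male and not in female paw, a difference between the sexes that itself missed the threshold in edgeR. The part of any of these cell types, or of the piece of skin taken, in the Krtap differences was not tested.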

How the data were processed

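Gene-level read counts for 30 mouse libraries were used as deposited. The libraries were made from 500 ng of RNA and read as single 50 nt reads, per the labels' protocols. Per the submitters' processing notes, bcl2fastq, TopHat2 and HTSeq were used with mm9; the sources used here give no versions, strand setting or counting mode. The deposited counts are raw, with 22609 genes and 5 summary lines per library, which were left out. HTSeq reports reads aligned to more than 1 place apart, so near-identical family members can lose reads: 15 of the 51 Krtap transcripts were unique in every 50-base stretch, and Krtap4-13 and Krtap5-1 in under 50%. Of the 51 members, 9 overlap another annotated gene.

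The 12 rRNA-depleted paw libraries were fitted together in edgeR 4.0.16 (R 4.3.3, limma 3.58.1; filterByExpr, TMM, quasi-likelihood test, Benjamini-Hochberg over all tested genes, threshold 0.05), and PRL_Sh with Female PRL in 6 libraries. Normalised CPM are scaled by TMM; CPM of gene reads are not. DESeq2 1.42.0, other scaling and filters, a replicate block and leaving out each library were alternatives. The code was tested on simulated data. Intervals are Wilson or, for ratios, exact; with no molecular identifiers they cover counting error only.

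The members and lists were chosen with earlier results of these data known. Named genes were up to 15 called members per comparison, or the 5 with the smallest p, the 12 highest members, those with at least 50% of reads in 1 library, those next to the filter, and up to 4 called genes per list. Names came from RefSeq (GRCm38.p6): 44 symbols were current and 7 older, and Krtap16-1 names 2 genes. No protein sequence was used, so the planned classes by composition were not made; classes named are background. Same-numbered libraries of the 2 arms did not deviate together, with correlations from -0.56 to 0.11 in females and from -0.30 to 0.06 in males, so numbers were not treated as pairs. No 2 replicates agreed within sampling noise.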

Additional observations from a re-analysis of the deposited data

How the results depend on the processing

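Neither summed level changed direction under the alternatives run, and no gene did in a comparison it was named for. The median of the members tested in PRL_Sh against PRL did: log2 -0.49, it was 0.26 without Female PRL 1 and 0.14 without Female PRL 2, and its 1 call, higher, became 1 lower without PRL_Sh 2. In the Veh comparison, with all 31 negative, 1 member, Krtap3-2, turned positive without Male Veh 2 (0.21). Without the filter and in DESeq2, 2 of 51 were positive. In male paw the 29 members called lower became 14 to 31 when 1 library was left out, lowest without Male PRL 3 (14) and Male PRL 1 (16). With the replicate number as a block they were 25, with DESeq2 27 and without the filter 35 of 51. The male summed level, log2 -4.58, was -6.18 by medians and ran from -6.09 to -4.17 when 1 library was left out. The lowest of these left out Male PRL 2. The 12 members called on average were 8 with the block and 7 to 14 leaving 1 library out, with 7 lacking Female Veh 3. The female count stayed at 0 in all, and the female sum, log2 0.48, ran from 0.01 to 1.01. The sex difference, 0 in edgeR, was 8 in DESeq2, and the Veh comparison, also 0, was 1. PRL_Sh against PRL, with 1 call, gave 6 without the filter, 7 in DESeq2, 0 with the block, and 0 to 15 leaving 1 library out: 0 without Female PRL 1 or PRL_Sh 3, 4 without Female PRL 2 and 15 without Female PRL 3. The cause of these shifts was not tested. Where a left-out library leaves 2 in an arm, fewer samples bear on the call. At 6.87 to 13.5 M gene reads, 20 of the 51 members were too low to be tested in the main comparison, and a gene with 0 reads in an arm is known only to lie under 3 reads of its total.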
